A study of Mus musculus with 24 samples.

Results

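The granins and granule membrane proteins described here are 8 genes, Chga, Chgb, Scg2, Scg3, Vgf, Resp18, Ptprn and Ptprn2. They were taken by symbol from the 41549 genes of the deposited mouse islet table, and all 8 were found. They were followed in wild type, dispersed pancreatic islet cells, which hold all islet cell types in culture, from mice that the study's methods give as C57BL/6NRj of both sexes, 12 to 14 weeks old. The cells were transfected with 50 pmol of a control antisense oligonucleotide (Ctr) or of one against the 5' tRNA fragment of tRNA Glu(CTC) (αGlu), and were then kept for 48 h with 0.5 mM palmitate bound to bovine serum albumin (PA) or with 0.75% albumin alone (BSA). Stranded mRNA libraries, 6 to a group, represent Ctr BSA, αGlu BSA, Ctr PA and αGlu PA, and every library, controls included, came from transfected cells. By the labels, batch 1 (S1 to S12) and batch 2 (S13 to S24) each hold 3 libraries per group, and what a batch stands for is not stated.

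Granins are acidic proteins of the regulated secretory pathway. They aggregate with calcium in the trans-Golgi network, help to load cargo into dense-core granules, and many are cut into peptides that leave the cell with the hormone. Ptprn (IA-2) and Ptprn2 (IA-2β, phogrin) are receptor-type tyrosine phosphatase homologues without ordinary phosphatase activity that span the granule membrane, set how many granules a cell keeps, and are autoantigens in type 1 diabetes. Resp18 is a luminal protein of endocrine and neural cells related to the luminal part of IA-2.

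Total counts per library ran from 18214719 to 35001979, with a median of 26701201.5, and the 8 genes held between 1.93% and 3.09% of them. All 8 were among the 15916 genes that passed the filter on low counts. Islet identity was plain: the summed level of 10 beta cell markers lay between 84100 and 152000 TMM-scaled CPM (read counts relative to library size) over all libraries. The same markers gave 3 genes raised and 3 lowered by palmitate in Ctr cells, and 6 alpha cell markers gave 1 lowered. The median summed beta cell level was 133000 CPM in Ctr BSA and 99300 CPM in Ctr PA. In αGlu cells it was 116000 CPM in BSA and 109000 CPM in palmitate. The ranges overlapped under both oligonucleotides. Fibroblast and stellate markers (6 genes) had a median summed level of 185 CPM in Ctr BSA and 23.2 CPM in Ctr PA, and 5 of them were lowered. In αGlu cells 3 of the 6 were lowered, from a median of 128 CPM to 13.3 CPM. Acinar markers (7 genes) fell from a median of 3260 CPM to 1650 CPM in Ctr cells, with 5 lowered. In the same cells 4 of 6 macrophage, 2 of 5 ductal, 1 of 4 delta and 1 of 2 PP cell markers were lowered, and none of these was raised. No marker in any of the 10 lists was at 0 in all libraries. The part of these shifts in the values below was not tested, and in bulk RNA fewer cells of a type and less RNA per cell cannot be told apart.

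The genes lie on 5 chromosomes (GRCm38, GENCODE M21). Chga is at chr12:102554969-102565028 on the plus strand, Chgb at chr2:132781278-132795079 on the plus strand, Scg2 at chr1:79434669-79440120 on the minus strand, and Scg3 at chr9:75643189-75684056 on the minus strand. Vgf is at chr5:137026392-137033351 on the plus strand, and Ptprn2 at chr12:116485720-117276849 on the plus strand. Ptprn (chr1:75247027-75264502) and Resp18 (chr1:75272199-75278415) are neighbours on the minus strand with 7696 bases between them. An annotated gene of the opposite strand lies inside Ptprn (Gm28294), Resp18 (Gm28902) and Scg3 (Gm37871), and 6 genes of either strand overlap Ptprn2, among them Mir153. The libraries were stranded, but the sources used here do not say whether counting used the strand, so reads of these overlapping genes cannot be told from those of the 4 members.

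RefSeq promoters, from 250 bases before to 50 after a transcription start, were found for 7 of the 8 genes, with a second entry for Ptprn. Vgf had none in the table. They are shown because several of these genes are textbook targets of the cAMP response element binding protein CREB, and because the members shared their variation across libraries to different degrees. Both strands were searched for the full cAMP response element TGACGTCA, its core TGACG (which every full element contains on each strand), and TATAAA. These letters are in capitals below.
Chgb, chr2:132781392-132781691, plus strand: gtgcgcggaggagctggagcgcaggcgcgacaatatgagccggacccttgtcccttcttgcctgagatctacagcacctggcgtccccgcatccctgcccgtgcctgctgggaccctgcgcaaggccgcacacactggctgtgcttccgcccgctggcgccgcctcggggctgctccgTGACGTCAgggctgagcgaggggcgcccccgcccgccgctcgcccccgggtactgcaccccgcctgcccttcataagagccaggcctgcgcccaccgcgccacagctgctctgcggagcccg
Scg2, chr1:79439977-79440276, minus strand: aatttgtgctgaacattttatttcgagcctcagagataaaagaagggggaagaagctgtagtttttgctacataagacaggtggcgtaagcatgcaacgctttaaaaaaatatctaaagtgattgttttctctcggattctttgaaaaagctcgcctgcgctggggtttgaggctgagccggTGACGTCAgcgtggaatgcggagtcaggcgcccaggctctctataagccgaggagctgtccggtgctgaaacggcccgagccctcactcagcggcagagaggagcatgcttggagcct
Chga, chr12:102554691-102554990, plus strand: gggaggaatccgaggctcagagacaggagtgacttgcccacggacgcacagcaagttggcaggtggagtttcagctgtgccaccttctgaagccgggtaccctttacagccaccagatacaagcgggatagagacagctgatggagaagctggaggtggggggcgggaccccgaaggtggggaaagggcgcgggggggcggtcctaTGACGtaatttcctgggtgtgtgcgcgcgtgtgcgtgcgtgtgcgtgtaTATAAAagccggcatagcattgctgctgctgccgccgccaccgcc
Scg3, chr9:75684007-75684306, minus strand: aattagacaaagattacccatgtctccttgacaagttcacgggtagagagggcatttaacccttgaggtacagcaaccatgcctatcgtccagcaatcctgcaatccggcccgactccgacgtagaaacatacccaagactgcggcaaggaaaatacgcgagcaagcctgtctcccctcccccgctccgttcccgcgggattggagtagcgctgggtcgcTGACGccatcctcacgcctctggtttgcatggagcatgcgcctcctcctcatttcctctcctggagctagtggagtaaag
Ptprn, first entry, chr1:75264159-75264458, minus strand: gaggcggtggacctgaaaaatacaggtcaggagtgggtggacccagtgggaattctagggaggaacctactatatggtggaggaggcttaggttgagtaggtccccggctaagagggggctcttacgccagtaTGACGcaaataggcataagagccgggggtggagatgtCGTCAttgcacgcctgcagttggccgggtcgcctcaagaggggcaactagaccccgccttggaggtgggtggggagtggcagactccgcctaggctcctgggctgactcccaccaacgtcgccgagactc
Resp18, chr1:75278366-75278665, minus strand: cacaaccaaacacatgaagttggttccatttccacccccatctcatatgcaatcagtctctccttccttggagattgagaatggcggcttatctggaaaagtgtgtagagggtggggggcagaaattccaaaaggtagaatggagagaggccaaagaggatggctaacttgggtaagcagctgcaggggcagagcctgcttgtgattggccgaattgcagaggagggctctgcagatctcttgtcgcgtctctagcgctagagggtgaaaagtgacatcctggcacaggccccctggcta
The full element stood in Chgb and in Scg2, 2 of the 8 member promoters, against 1.79% of all 32851 promoters in the table. With the first transcribed base of RefSeq counted as 0, its first base lay at -72 in Chgb and at -68 in Scg2. All such positions depend on the annotation, since the GENCODE boundaries given above begin elsewhere for Chga, Chgb and Scg2. The core was present in 5 of the 8 entries, against 20.8% of all promoters. Besides the full elements these were single sites at -44 in Chga and -30 in Scg3 and a pair in Ptprn, starting at -117 on the forward and -80 on the reverse strand. TATAAA was found in 1 entry, Chga, at 5 bases after the RefSeq start, against 13.6% of all promoters. Resp18, Ptprn2 and the second Ptprn entry held none of the 3 motifs. These are matches of letters in one window and not shown to be bound sites.

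Per transcript length, in the deposited TPM values (counts relative to transcript length and library size), Scg2 and Chga stood at the top. Scg2 (secretogranin II, the precursor of secretoneurin) averaged 9172 ± 1515 TPM (SD, n = 24 libraries), the 12th highest mean of all genes. Chga (chromogranin A, the precursor of vasostatin and pancreastatin) averaged 8924 ± 1498 TPM. The order of this pair was not fixed, since Scg2 was above Chga in 14 of the 24 libraries. Chgb (chromogranin B) followed with 4259 ± 1316 TPM, below Chga in all 24 libraries. Resp18 averaged 2198 ± 234 TPM and was above Scg3 in 22 of 24 libraries. Scg3 (secretogranin III, which tethers Chga to cholesterol-rich granule membrane) averaged 1795 ± 256 TPM. Ptprn averaged 674 ± 139 TPM. Vgf, the precursor of neuroendocrine peptides such as TLQP-21, averaged 300.5 ± 102 TPM (range 134 to 495), and Ptprn2 265 ± 40.5 TPM. Vgf was above Ptprn2 in 14 of 24 libraries, so these neighbours could not be ranked either. Ranking by CPM, which favours long transcripts, kept the place of Chgb alone.

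**Figure D1:**
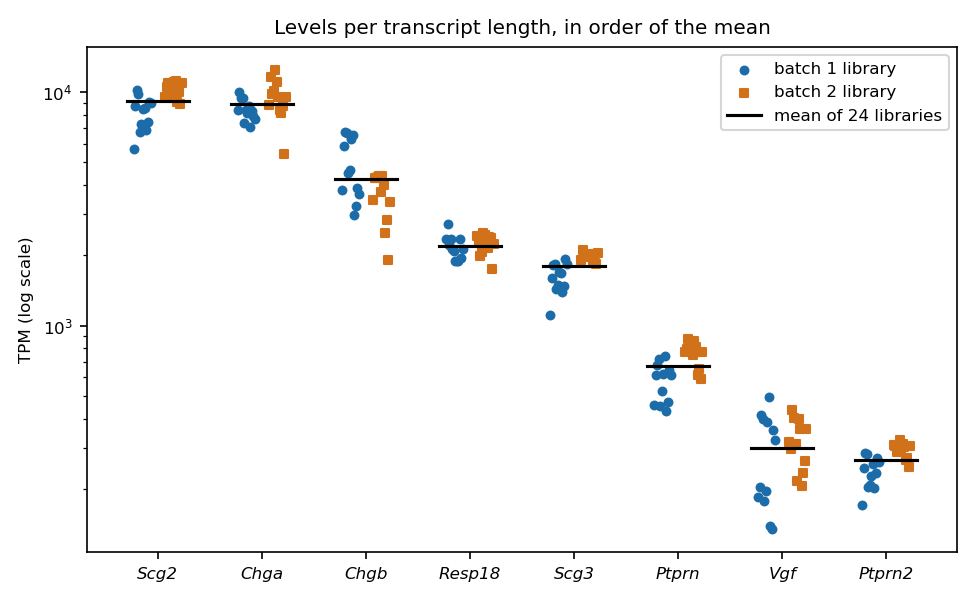
TPM on a log scale of each gene (x axis, in order of the mean) in each of the 24 libraries, with circles for batch 1, squares for batch 2 and a line for the mean. Scg2 and Chga overlap at the top near 9172 and 8924 TPM, Vgf and Ptprn2 overlap at the bottom, and Vgf has the widest spread relative to its mean.

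The first comparison asked what palmitate did to these transcripts in cells given the Ctr oligonucleotide. Vgf, Scg2 and Scg3 rose and Resp18 fell, while Chga, Chgb, Ptprn and Ptprn2 did not pass the test. That is 3 of 8 genes raised, where 15.5% of the 15916 genes tested were raised, and 1 of 8 lowered, where 14.5% were lowered (edgeR quasi-likelihood test, Benjamini-Hochberg adjusted p below 0.05). The median log2 fold change of the 8 genes was 0.19, and that of all genes tested was 0.01. No member passed a 2-fold change.

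Among the granins, Vgf changed most. Its level in Ctr BSA was 145 CPM at the lowest, 244 at the median and 341 at the highest, and in Ctr PA it was 308, 407 and 485 CPM. In 5 of the 6 Ctr PA libraries it was above every Ctr BSA library, the exception being S23. The estimated log2 fold change was 0.72 (SE 0.163, edgeR adjusted p = 0.0017), a fold of 1.65.

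Scg2 in Ctr cells ranged over 5770, 7623 and 8996 CPM (lowest, median, highest) without palmitate and 7563, 8760 and 10269 CPM with it. The groups overlapped across batches but not within batch 1. A comparison within a batch sets 3 libraries against 3, so a gap there is weak evidence. How many of all genes show such a gap was not counted. The log2 fold change was 0.25 (SE 0.0641, edgeR adjusted p = 0.0041). Scg3 ranged over 1338, 1669 and 1939 CPM in Ctr BSA and 1638, 1818 and 2067 CPM in Ctr PA, again without overlap in batch 1. Its log2 fold change was 0.17 (SE 0.0597, edgeR adjusted p = 0.029), and the call was lost without any one of S3, S5, S7, S9 or S11, all of batch 1, with adjusted p up to 0.085.

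Chga and Chgb, the chromogranins proper, leaned in opposite directions without passing the test. Chga was 6821, 8529 and 12150 CPM in Ctr BSA and 5886, 8333 and 10115 CPM in Ctr PA, with a log2 fold change of -0.13 (95% interval -0.40 to 0.14). Chgb was 2526, 3801 and 4971 CPM in Ctr BSA and 2056, 4254 and 6224 CPM in Ctr PA, with a log2 fold change of 0.24 (95% interval -0.17 to 0.64). Chgb had the widest interval of the 8 genes in this comparison, and it takes in changes larger than those called for Scg2 and Scg3.

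Resp18 was the one member lowered. It ranged over 681, 904 and 1160 CPM in Ctr BSA and 683, 737 and 810 CPM in Ctr PA, so the groups overlapped, although within batch 2 they did not. The log2 fold change was -0.26 (SE 0.0888, edgeR adjusted p = 0.027). Library S1 held the 1160 CPM, and without it the log2 fold change was -0.15 (adjusted p = 0.088). The call was also lost without S11 (adjusted p = 0.051) or S23 (adjusted p = 0.054).

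The granule membrane pair showed small estimates. Ptprn was 639, 951 and 1289 CPM in Ctr BSA and 931, 980 and 1391 CPM in Ctr PA, with a log2 fold change of 0.21 (95% interval 0.01 to 0.41, edgeR adjusted p = 0.10). It passed the threshold without S1 (adjusted p = 0.034), S17 (adjusted p = 0.045) or S23 (adjusted p = 0.023). Ptprn2 was 598.5 to 993 CPM in Ctr BSA and 694 to 922 CPM in Ctr PA, with a log2 fold change of 0.11 (95% interval -0.03 to 0.24).

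**Figure D2:**
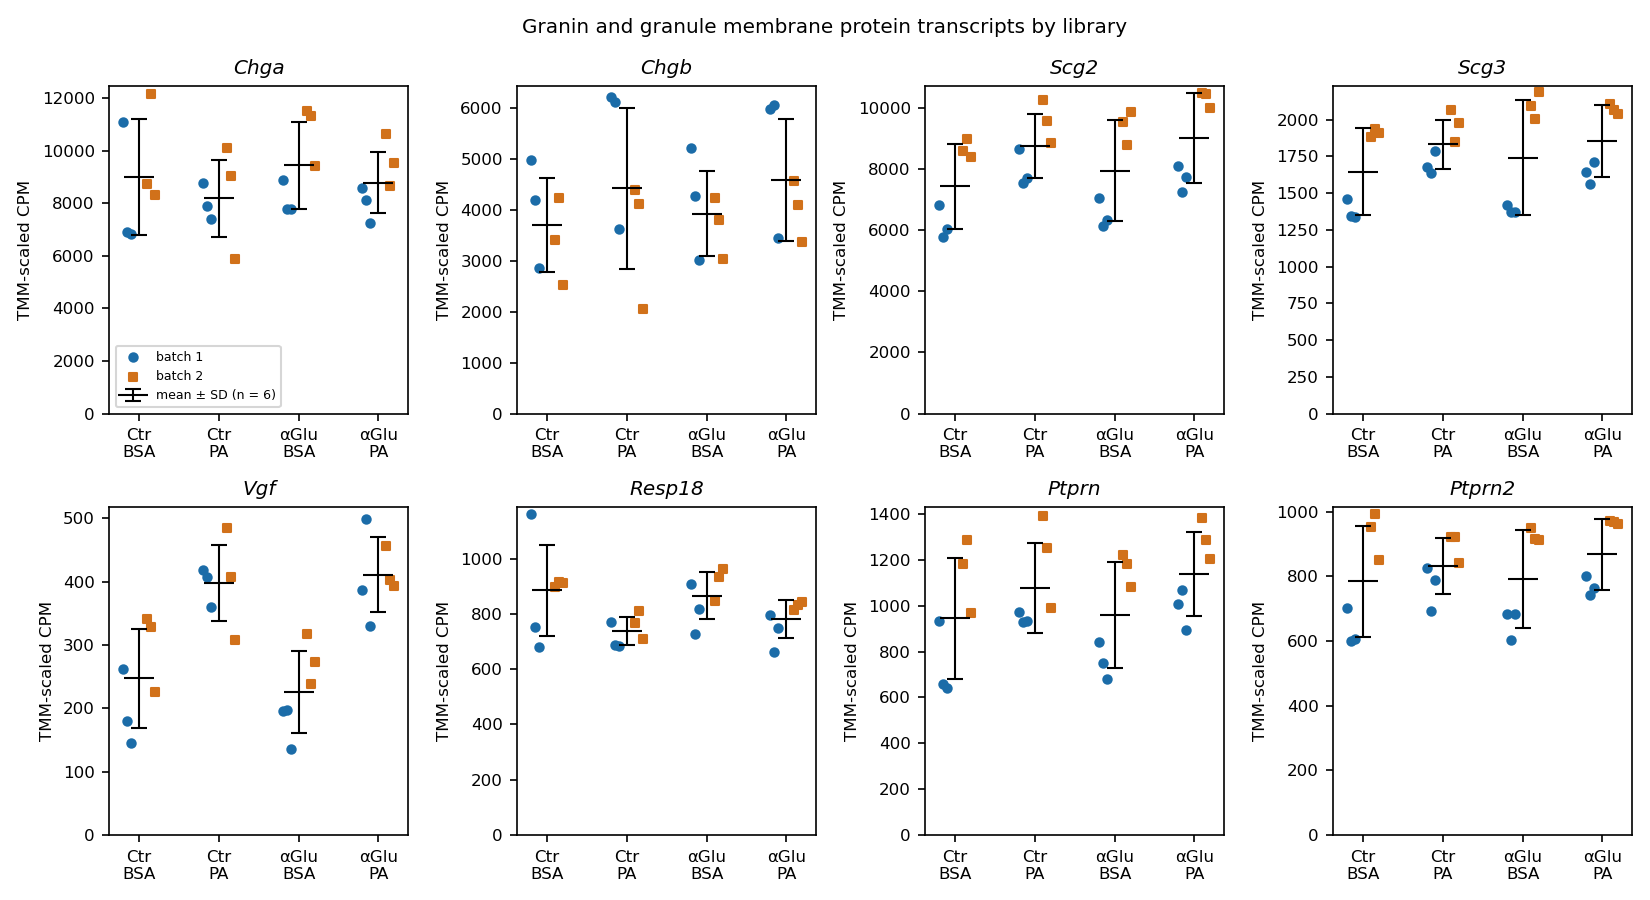
TMM-scaled CPM (y axis, from 0) of each gene in the 4 groups (x axis), with circles for batch 1, squares for batch 2 and bars for the mean ± SD of 6 libraries. The Vgf points of αGlu PA lie above all those of αGlu BSA, whereas for Scg2, Scg3, Ptprn and Ptprn2 the batch 2 squares sit above the batch 1 circles in every group.

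In cells given the αGlu oligonucleotide, palmitate raised Vgf, Scg2 and Ptprn, and no member was lowered past the threshold. That is 3 of 8 raised against 14.4% of all genes tested and 0 of 8 lowered against 14.2%, and Ptprn2 had an unadjusted edgeR p of 0.037. Vgf ranged over 135, 218 and 318 CPM in αGlu BSA and 329.5, 397 and 499 CPM in αGlu PA, without overlap, and the log2 fold change was 0.90 (SE 0.163, edgeR adjusted p = 2.1e-04). Scg2 ranged over 6157, 7914 and 9876 CPM and then 7271, 9061 and 10493 CPM, and did not overlap within either batch. Its log2 fold change was 0.19 (SE 0.0640, edgeR adjusted p = 0.030). Ptprn ranged over 681, 962 and 1223 CPM and then 892, 1136 and 1381 CPM, and did not overlap within batch 1. The log2 fold change of Ptprn was 0.27 (SE 0.0976, edgeR adjusted p = 0.042). Both of these calls stood near the threshold: that of Scg2 was lost without any one of 6 libraries (S4, S6, S10, S16, S18, S20) and that of Ptprn without any one of 7 (S4, S6, S8, S10, S16, S20, S22).

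The other members gave αGlu estimates on the same side of 0 as in Ctr cells. Scg3 was at 0.11 on the log2 scale (95% interval -0.01 to 0.23), with 1374 to 2186 CPM in αGlu BSA and 1559 to 2106 CPM in αGlu PA. Within batch 1 the Scg3 groups did not overlap. Ptprn2 was at 0.14 (95% interval 0.01 to 0.28), with 604 to 949 CPM and 742 to 970 CPM, and its groups did not overlap within either batch. Resp18 was at -0.15 (95% interval -0.33 to 0.04), with 728 to 961 CPM and 661 to 842 CPM, and did not overlap within batch 2. Chgb was at 0.21 (95% interval -0.19 to 0.62), with 3018 to 5208 CPM and 3378 to 6056 CPM. Chga was at -0.10 (95% interval -0.36 to 0.17), with 7765 to 11509 CPM and 7234 to 10619 CPM. A call in one kind of cell and not in the other is not a difference between them: the palmitate responses of αGlu and Ctr cells, tested against each other, differed for 0 of 8 members and 0 of 15916 genes, 0% (edgeR), and at an unadjusted p below 0.05 for 0 members, where 2.09% of all genes passed. DESeq2 also called 0 members and 0 of all genes. For Vgf the difference was 0.18 (95% interval -0.30 to 0.65).

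Averaged over both oligonucleotides, with 12 libraries on each side, palmitate raised 5 of the 8 genes and lowered 1. Of the 15916 genes tested, 3722 were raised and 3499 lowered, and 45.4% were called in either direction. The raised genes were Vgf (log2 fold change 0.81, SE 0.116, edgeR adjusted p = 4.1e-06), Scg2 (0.22, SE 0.0453), Ptprn (0.24, SE 0.0690), Scg3 (0.14, SE 0.0422) and Ptprn2 (0.13, SE 0.0462, adjusted p = 0.028). The Ptprn2 call was lost without any one of S3, S5, S6, S9 or S11 (edgeR adjusted p up to 0.058). It was also lost under upper-quartile scaling (edgeR adjusted p = 0.051). Resp18 fell by 0.21 on the log2 scale (SE 0.0628, edgeR adjusted p = 0.0096). Chga (-0.11, 95% interval -0.30 to 0.08) and Chgb (0.22, 95% interval -0.06 to 0.51) did not pass. Where libraries were scaled to 16 pan-endocrine genes in place of all genes, the median of all genes moved from 0.01 to -0.08 and the calls of Scg3, Ptprn and Ptprn2 were lost, with adjusted p between 0.064 and 0.45, while Vgf, Scg2 and Resp18 were still called.

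The second question of the design was whether blocking the tRNA fragment altered these transcripts. No member passed the test between αGlu and Ctr cells in BSA, in palmitate or on average (0 of 8 in each). Of all genes tested, edgeR called 0%, 0% and 0.239%. The estimates were above 0 for 6, 8 and 7 of the 8 genes, against 50.4%, 48.4% and 48.2% of all genes. Whether the members lean upwards as a set was not tested. Within batch 2, at 3 libraries against 3, αGlu and Ctr cells did not overlap for Scg3 in BSA and for Resp18 and Ptprn2 in palmitate. The other members overlapped there, and within batch 1 every member overlapped in both media. Such gaps are weak evidence, and how many of all genes show them was not counted. At an unadjusted p below 0.05 there were also 0 members in each comparison, against 2.90%, 3.38% and 3.90% of all genes. DESeq2 likewise called 0 members in each, where it called 8, 30 and 90 of all genes. Averaged over both media, with 12 libraries a side, the estimates ran from -0.04 for Vgf (95% interval -0.28 to 0.20) to 0.08 for Chgb (95% interval -0.21 to 0.36). The intervals were narrowest for Scg3, from -0.05 to 0.13, Scg2, from -0.03 to 0.15, and Ptprn2, from -0.06 to 0.13. For Chga the interval ran from -0.11 to 0.27, for Ptprn from -0.09 to 0.19 and for Resp18 from -0.11 to 0.15. In BSA alone, the Vgf level was 145 to 341 CPM in Ctr and 135 to 318 CPM in αGlu cells, almost the same span.

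**Figure D3:**
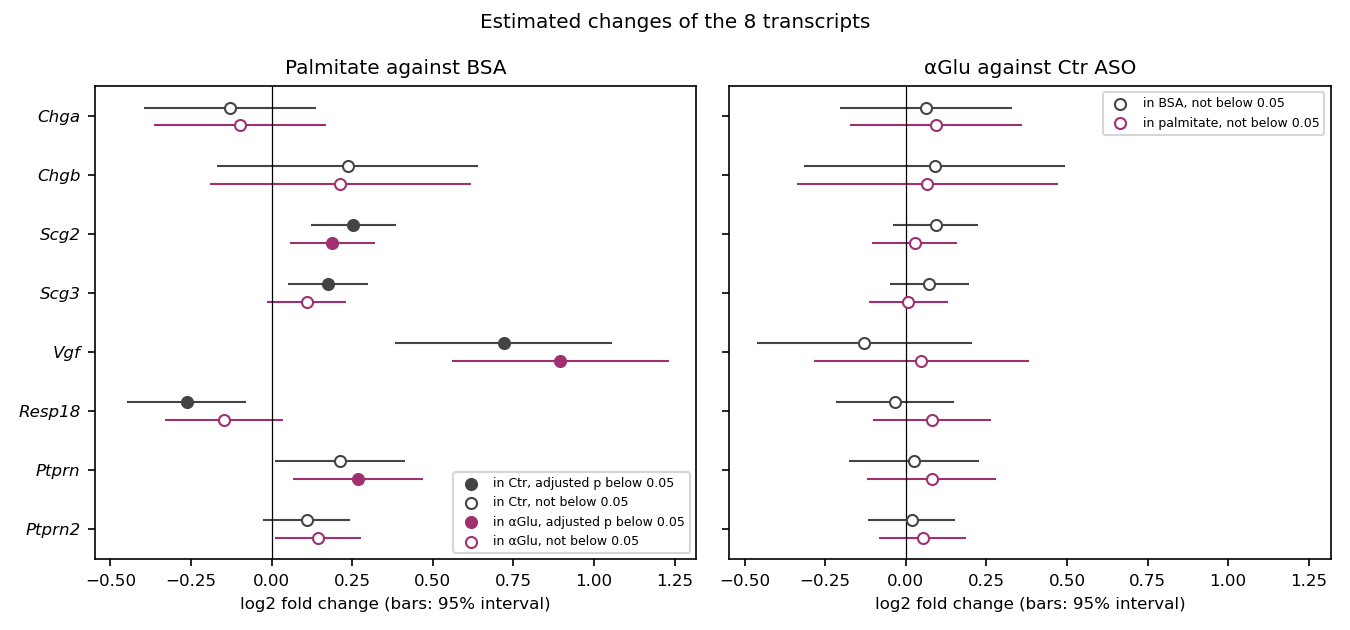
Log2 fold changes (x axis) of the 8 genes (y axis) with 95% intervals, for palmitate against BSA on the left and αGlu against Ctr on the right, and filled points where the edgeR adjusted p was below 0.05. Vgf stands apart at 0.72 and 0.90 under palmitate, and every interval on the right includes 0.

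For 6 of the 8 genes, Chga, Chgb, Scg2, Scg3, Ptprn and Ptprn2, the estimated difference between batches was larger in size than that of palmitate averaged over both oligonucleotides. Between batch 2 and batch 1, 6 of 8 genes were higher, where 26.1% of all genes tested were higher, and 1 of 8 was lower, where 25.4% were lower. Ptprn was higher by 0.50 on the log2 scale (SE 0.0691), Scg2 by 0.42 (SE 0.0454), Scg3 by 0.40 (SE 0.0423) and Ptprn2 by 0.40 (SE 0.0463), all with edgeR adjusted p of 1.7e-06 or less. Scg3 lay at 1338 to 1789 CPM in the 12 libraries of batch 1 and at 1847 to 2186 CPM in batch 2, and Ptprn2 at 598.5 to 825.5 CPM and 841 to 993 CPM, so that neither overlapped. The other 6 genes overlapped between batches, and how many of all genes do not was not counted. Vgf was higher by 0.33 (SE 0.115, edgeR adjusted p = 0.019) and Chga by 0.24 (SE 0.0915, adjusted p = 0.031). Under pan-endocrine scaling both calls were lost, with Vgf at 0.23 (adjusted p = 0.10) and Chga at 0.15 (adjusted p = 0.19). Chgb went the other way, lower by 0.34 (log2 fold change -0.34, SE 0.139, edgeR adjusted p = 0.041). The Chga call was lost without any one of 9 libraries and the Chgb call without any one of 14. Resp18 was at 0.12 (SE 0.0628, adjusted p = 0.10), and was called without S1 (0.18, adjusted p = 0.0011).

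The palmitate responses were also set apart by batch. In batch 1 alone, averaged over both oligonucleotides, Vgf had a log2 fold change of 1.10, Ptprn 0.36, Scg2 0.29, Scg3 0.26 and Ptprn2 0.24. All 5 passed an adjusted p of 0.05 in edgeR, where 4327 of all genes passed in batch 1 alone and 4240 in batch 2 alone. The filter on low counts was applied anew in each batch, so the number tested may differ from 15916 and no share is given. In batch 2 alone Vgf was at 0.51 (adjusted p = 0.0087), Scg2 at 0.14 (adjusted p = 0.080), Ptprn at 0.12, Scg3 at 0.01 and Ptprn2 at 0.00. Resp18 gave nearly equal sizes, -0.22 (adjusted p = 0.19) for batch 1 and -0.19 (adjusted p = 0.010) for batch 2. For Vgf within Ctr cells, batch 1 gave 1.00 (adjusted p = 0.0093) and batch 2 gave 0.42 (adjusted p = 0.14).

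The batch means of Vgf without palmitate were 196 and 298 CPM in Ctr BSA and 176 and 276 CPM in αGlu BSA (batch 1, then batch 2). With palmitate they were 395 and 400 CPM in Ctr PA and 405 and 417 CPM in αGlu PA. These means of 3 libraries lay further apart in BSA than in palmitate. The libraries of the batches overlapped in Ctr BSA (145 to 263 and 226 to 341 CPM) and not in αGlu BSA (135 to 196.5 and 239 to 318 CPM). In Ctr PA they ran from 359 to 417 and from 308 to 485 CPM. Scg3 kept its batch gap in part: its means were 1380 and 1910 CPM in Ctr BSA and 1702 and 1964 CPM in Ctr PA.

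Tested as a difference between batches, no member passed (0 of 8, where edgeR called 0.0565% of all genes). At an unadjusted p below 0.05 there were 3 of 8 members, where 6.18% of all genes passed. In edgeR these were Scg3 (-0.26, SE 0.0642, adjusted p = 0.24), Ptprn2 (-0.25, SE 0.0799, adjusted p = 0.53) and Vgf (-0.60, SE 0.207, adjusted p = 0.57). The estimate was below 0 for 7 of the 8 genes, the exception being Resp18 at 0.02 (95% interval -0.26 to 0.29). DESeq2 called Scg3 in this test (log2 value -0.25, adjusted p = 0.0017), where it called 43 of all genes.

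**Figure D4:**
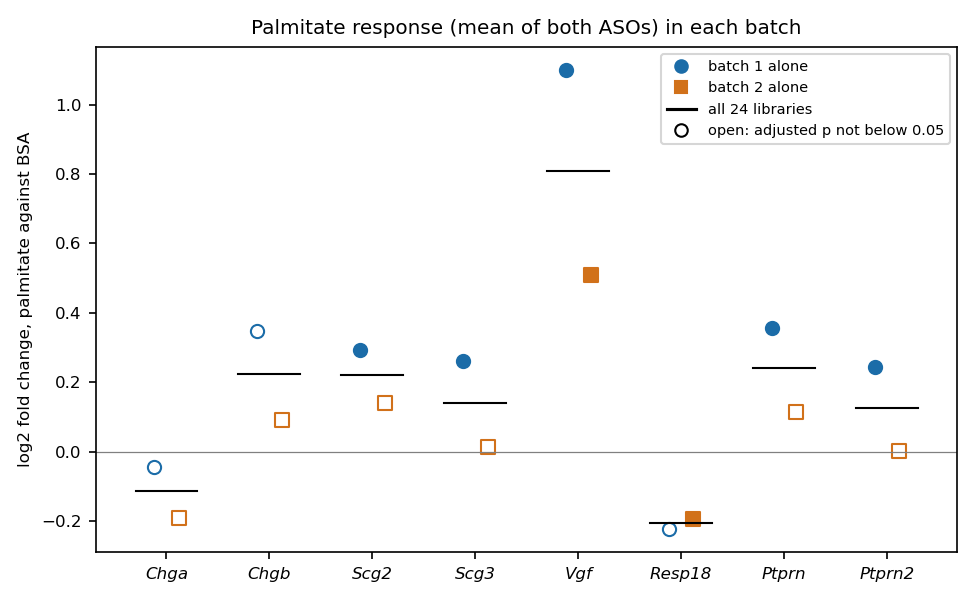
Log2 fold change of palmitate against BSA, averaged over both oligonucleotides (y axis), for each gene (x axis) in batch 1 alone (circles), in batch 2 alone (squares) and in all 24 libraries (lines), filled where the edgeR adjusted p was below 0.05. The batch 1 value is above the batch 2 value for every gene except Resp18, and the gap is widest for Vgf, at 1.10 and 0.51.

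Ratios of counts within a library do not depend on how libraries are scaled. Of 16 comparisons (4 ratios in 4 pairs of groups), 2 passed a two-sided exact permutation test of 6 against 6 libraries after adjustment, both for Vgf over Chga under palmitate. The mean log2 ratio was -5.22 ± 0.296 for Ctr BSA (SD, n = 6) and -4.36 ± 0.0799 for Ctr PA. The groups did not overlap, and the difference of 0.86, with 1.06 for batch 1 and 0.66 for batch 2, had the smallest exact permutation p this design allows (p = 0.0022, adjusted p = 0.017). In αGlu cells it rose from -5.42 ± 0.273 to -4.42 ± 0.202, again without overlap, and the difference of 1.00 was 1.23 and 0.76 in the batches (exact permutation p = 0.0022, adjusted p = 0.017). As counts, Vgf stood at 0.0268 of Chga in Ctr BSA and 0.0487 in Ctr PA (geometric means).

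The other ratios missed the threshold, in tests that take no account of batch or of libraries that may share animals. Chgb over Chga was -1.29 ± 0.343 in Ctr BSA and -0.96 ± 0.441 in Ctr PA (exact permutation p = 0.18, adjusted p = 0.42). The difference was 0.41 for batch 1 and 0.25 for batch 2, and in αGlu cells 0.33 and 0.29. With labels permuted only within each batch, a choice made after seeing the data, the exact permutation p was 0.06 in Ctr cells and 0.06 in αGlu cells (adjusted p = 0.21 for both). The ratio of Chgb over Chga also differed between batches, with a mean of -0.84 ± 0.340 in batch 1 and -1.41 ± 0.207 in batch 2 (n = 12 each). The batches overlapped, at -1.36 to -0.37 and -1.72 to -1.07. Scg2 over Scg3 was held much more tightly, between 2.10 and 2.38 on the log2 scale over all 24 libraries, although each gene alone varied with batch. Palmitate against BSA gave a difference of 0.08 in Ctr cells (exact permutation p = 0.14) and 0.08 in αGlu cells (exact permutation p = 0.058, adjusted p = 0.31), the latter made up of 0.00 for batch 1 and 0.15 for batch 2. Ptprn over Ptprn2 was 0.25 ± 0.136 in Ctr BSA and 0.36 ± 0.149 in Ctr PA (exact permutation p = 0.21, adjusted p = 0.42).

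**Figure D5:**
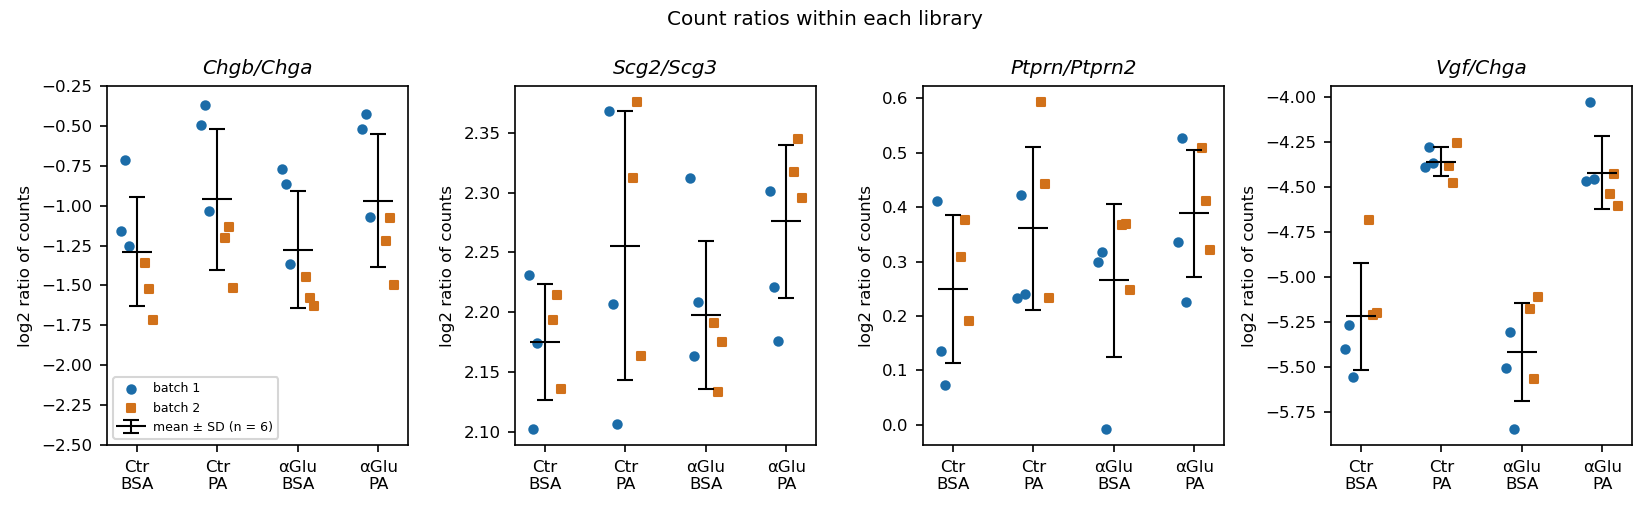
Log2 ratio of counts within a library (y axis) for 4 pairs of genes in the 4 groups (x axis), with circles for batch 1, squares for batch 2 and bars for the mean ± SD of 6 libraries. Vgf over Chga separates palmitate from BSA without overlap under both oligonucleotides, whereas Chgb over Chga is lower on average in batch 2, with overlap between the batches.

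Across the 24 libraries, with batch means removed, the members fell along no single line. Log2 CPM of Vgf and Ptprn had Pearson r = 0.89, Scg2 and Scg3 0.84, Scg2 and Ptprn2 0.84, and Ptprn and Ptprn2 0.81. Chga had its highest values with Chgb (0.68) and Resp18 (0.62), then with Ptprn (0.55) and Ptprn2 (0.42), and lower ones with Scg2 (0.26), Vgf (0.17) and Scg3 (0.13). Resp18 had r = 0.01 with its neighbour Ptprn and -0.30 with Vgf. These values describe libraries that share the treatment contrast and scaling, and carry no test.

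Over 11584 genes with a mean of at least 100 counts, the non-members most like each member were listed by the same measure. For Vgf they were Tmed3 (r = 0.96), Hap1 (0.95) and Sdccag8 (0.95), and for Ptprn they included Syt5 (0.94) and Nucb1 (0.94). For Scg2 they were Bex4 (0.94), Arpc1a (0.92) and Vapb (0.92), and for Chga Apbb1 (0.92), Prdx5 (0.91) and Rangap1 (0.91). The remaining nearest genes had r between 0.86 and 0.90. They were Ndn, H2-T23 and Gnas for Chgb, Nell1, Gnat2 and Kcnk16 for Scg3, Lrrn2, Tulp3 and Cpt1c for Resp18, and Abca2, Galr3 and Armcx4 for Ptprn2.

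Other genes of the dense-core granule were counted beside the members, and their counts are to be read against the shares of all genes given above, 15.5% raised and 14.5% lowered in Ctr cells and 14.4% and 14.2% in αGlu cells. Of 16 genes of soluble cargo and its processing, palmitate raised 3 and lowered 6 in Ctr cells and raised 4 and lowered 4 in αGlu cells, and the list's medians were -0.02 and -0.04 on the log2 scale. Npy, a neuropeptide, fell from 31.3 ± 6.80 CPM (SD, n = 6) to 11.3 ± 2.79 CPM in Ctr cells (log2 fold change -1.47). Ins1, an insulin gene, had -0.44, while Iapp, the amyloid polypeptide co-secreted with insulin, had 0.43 and Pam, which amidates peptides, 0.35, all 4 called.

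Of 19 tested genes of the granule membrane, 10 were raised and 1 lowered in Ctr cells (median 0.22), and 9 and 1 in αGlu cells (median 0.15). Slc18a1, a vesicular monoamine transporter, rose from 15.6 ± 4.73 CPM to 27.6 ± 6.53 CPM (log2 fold change 0.84). Cd63, a tetraspanin of late endosomes and granules, had 0.78, Sv2a, a synaptic vesicle glycoprotein, 0.68 and Atp6ap2, an accessory subunit of the proton pump, 0.50. The estimates of 0.21 for Ptprn and 0.11 for Ptprn2 in the same cells were below each of these 4. Of 20 genes of granule biogenesis, 7 rose and 0 fell in each kind of cell (median 0.11 in both). Among them were Cadps2 (0.45), a priming factor, Vti1a (0.29), a Golgi SNARE, Syt4 (0.26), a granule maturation synaptotagmin, and Ica1 (0.21), an islet autoantigen that binds granule membranes. Syt4 had 0.06 in αGlu cells and was not called there.

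Of 20 regulators of granule genes, palmitate raised 3 and lowered 5 in Ctr cells and raised 3 and lowered 3 in αGlu cells, with counts raised in both and lowered in αGlu cells near the shares over all genes. Mafa, a beta cell transcription factor, fell by 0.41 on the log2 scale in Ctr cells, Crtc1, a CREB coactivator, fell by 0.24, Stat5b fell by 0.22, and Crem, a CREB family member, had 0.31. Of 13 tested early genes that respond to CREB, 1 was raised and 8 were lowered in Ctr cells (median -0.41), and 1 and 10 in αGlu cells (median -0.48). Nr4a1 fell from 27.9 ± 7.77 to 15.4 ± 4.28 CPM in Ctr cells (log2 fold change -0.84), Per1 had -0.70, Sik1 -0.50 and Nr4a2 -0.43. Of the members whose promoters were searched, Scg2 and Chgb held a full cAMP response element. Scg2 had 0.25 in the same cells, and Chgb had 0.24 and was not called. Vgf, whose promoter could not be searched, had 0.72. Any part of CREB in these values was not tested. Of the 16 pan-endocrine genes used for the alternative scaling, 4 were raised and 1 lowered in Ctr cells (median 0.10), Ank2 at 0.31, Celf3 at 0.27, Snap25 at 0.25 and Uchl1 at -0.28.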

How the data were processed

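Stranded mRNA libraries of mouse islet cells were used. The authors used the QIAGEN RNA-seq Analysis Portal and deposited, per gene and library, exon read counts with RPKM, TPM and CPM. The labels name GRCm38, and for the aligner and counting settings the sources used here give nothing. Empty cells were read as a count of 0. The deposited counts carried every test, and the deposited TPM served only for levels between genes. The RPKM and CPM columns were not used.

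Genes passing filterByExpr were scaled by TMM and fitted in edgeR 4.0.16 (R 4.3.3) with group and batch terms over all 24 libraries, by two-sided quasi-likelihood F-tests with Benjamini-Hochberg adjustment over 15916 genes, called below 0.05. CPM are TMM-scaled. Correlations used log2 CPM with a prior count of 2. The fit was tested on simulated data. Alternatives were DESeq2 1.42.0, other scalings, filters, designs and omissions of libraries. The study calls its samples independent experiments and says that a replicate's groups came from 1 animal, but the labels do not link libraries, so tests are unpaired. Intervals cover the spread between libraries. Members, related gene lists and motifs were written by hand and chosen with earlier results of these data known. All 8 members are named, and from each list the 4 genes of smallest p in Ctr cells. Motifs and promoters come from RefSeq (GRCm38.p6), positions from GENCODE M21. Protein sequences were not analysed here. Of the genes most like each member, 1 is not reported here.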

Additional observations from a re-analysis of the deposited data

How the results depend on the processing

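Over 696 values of members and ratios under changed settings, 655 were kept (632 with the same sign and 23, uncalled, with the other). Kept means on the same side of the threshold. Ratios in a single batch had no test, and for them it means a shift below the larger SD of the groups compared. Among the rest, 36 calls were lost, 3 were gained and 2 of these untested ratios moved. As reported, 4, 3 and 6 members were called for palmitate (Ctr, αGlu, averaged), 7 between batches, and 2 ratio comparisons. The 36 lost calls come from these, and most of the 696 values were uncalled and had no call to lose. No called value reversed. Of 8 members, palmitate in Ctr cells changed 4 as reported, 1 without the batch term, 2 in a fit of the 2 groups alone and 1 in batch 2 alone. Of all genes, the same fits called 4772, 2312, 3281 and 1833. Fits of fewer libraries filtered the genes anew, so the numbers tested in them may differ. In αGlu cells it changed 3 as reported and 1 without the batch term, in batch 1 alone or in batch 2 alone, and 4 when its 2 groups were fitted on their own. In that order, 4543, 2271, 1644, 1902 and 5676 of all genes were called. Averaged, it changed 6 as reported, 3 under pan-endocrine scaling, 2 without the batch term and 2 in batch 2 alone. Here 7221, 6441, 5032 and 4240 of all genes were called. Requiring more than a 2-fold change and only an unadjusted p below 0.05 left 0 members in each of the 3 when all 24 libraries were fitted, and 0 between batches (7 as reported). The same rule passed 941 (Ctr cells), 886 (αGlu cells) and 915 (averaged) of all genes, and 1015 between batches. DESeq2 called 1 member for the difference of responses between batches (0 as reported) and 43 of all genes (9 as reported). Ranked by CPM, 1 of 8 members kept its place by TPM.

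With each library left out, the calls ran from 2 to 5 members (Ctr cells), from 1 to 3 (αGlu cells), from 5 to 6 (averaged) and from 5 to 7 (batch 2 against batch 1), and stayed at 0 for αGlu against Ctr in BSA, in palmitate and averaged, and at 0 for both differences of responses. The Vgf palmitate calls held each time (adjusted p up to 0.0059 in Ctr and 8.1e-04 in αGlu cells), and the ratios kept 2 passing comparisons. They also did with labels permuted within batches (exact permutation, smallest possible p = 0.005, adjusted p = 0.04 for both), an alternative chosen after seeing the data. Pan-endocrine scaling lost Scg3 in Ctr cells (0.10, adjusted p = 0.25) and Scg2 (0.09, adjusted p = 0.30) and Ptprn (0.17, adjusted p = 0.22) in αGlu cells, and called Resp18 lowered there (-0.25, adjusted p = 0.017). It moved the median of all genes between batches from 0.00 to -0.10. The cause of these changes was not tested. No paired analysis was possible because the labels do not say which libraries share an animal or preparation, although the study describes the groups of a replicate as matched. Every test therefore treats matched libraries as unpaired.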
